A study of Rattus norvegicus with 8 samples.

Results

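Genes of the motile cilium were followed in the hippocampus of rats after intracranial self-stimulation (ICSS). The set was defined by name: every array feature with a single platform symbol that begins with Dnah, Dnai, Cfap, Rsph, Tekt, Spag or Drc and a digit, or that equals Foxj1, Dynlrb2, Ak7 or Mlf1. The rule found 70 features of 47 genes, out of 14871 named genes on the arrays. The rule uses names alone.

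All animals were male Wistar rats aged 13 weeks with a unilateral electrode aimed at the lateral hypothalamus, and Sham rats carried the electrode too. ICSS rats worked for 2500 stimulation trains in the last session, while Sham rats spent 40 min in the box without current. For both groups the labels also give 7 days of recovery and training sessions of 20 min. There were 4 pools a group, and one pool combined the hippocampi of 3 rats from the electrode's side, so differences between animals within a pool are not seen. RNA of a pool carried Cy5 and shared its 2-colour array with a Cy3 common reference of brain tissue, so a value is a log2 ratio of pool to reference, and it is comparable between pools but is no level of one gene against another. Of 11 hippocampal neuron genes measured, 9 had a mean ratio above 0, and the median of the 11 means was 0.26. Among them Neurod6, a transcription factor of pyramidal neurons, was at 1.39 to 1.95 over the 8 pools. C1ql2, a marker of dentate granule cells, was at 1.76 to 2.75. Over all features, array medians ran from -0.032 to 0.016, and pairs of arrays correlated at 0.586 to 0.873. The lowest correlation was between Sham replicate 4 and ICSS replicate 3. Sham replicate 4 stood apart, with no correlation to another array above 0.779.

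Motile cilia are hair-like organelles built on a ring of doublet microtubules around a central pair. Dynein arms on the doublets slide them past each other, and radial spokes and the nexin-dynein regulatory complex shape that sliding into a beat. In the brain such cilia are carried by ependymal cells, which line the ventricles and move cerebrospinal fluid, and Foxj1 is the transcription factor that switches on their genes. Choroid plexus epithelium also bears cilia. The hippocampus borders the lateral ventricle, but its neurons carry a single immotile primary cilium instead.

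No member passed the test between ICSS and Sham, and the most regular feature of the data was a difference between pools. Of 47 members, 23 had their lowest value in Sham replicate 4 and 24 their highest in ICSS replicate 3. Both held for 20 members, or 42.6%, against 4.04% of the 34738 units tested (14871 genes and 19867 unnamed probes). Over all units, 20.7% were lowest in Sham replicate 4 and 10.8% were highest in ICSS replicate 3. The median over members was 0.050, 0.065, 0.20 and -0.029 in ICSS replicates 1 to 4 and 0.071, 0.0066, -0.0013 and -0.18 in Sham replicates 1 to 4, so the groups overlapped. Sham replicate 4 and ICSS replicate 3 were also the least correlated pair of arrays over all features. In these bulk samples fewer ependymal cells and less RNA per cell cannot be told apart, and other causes were not tested.

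**Figure D1:**
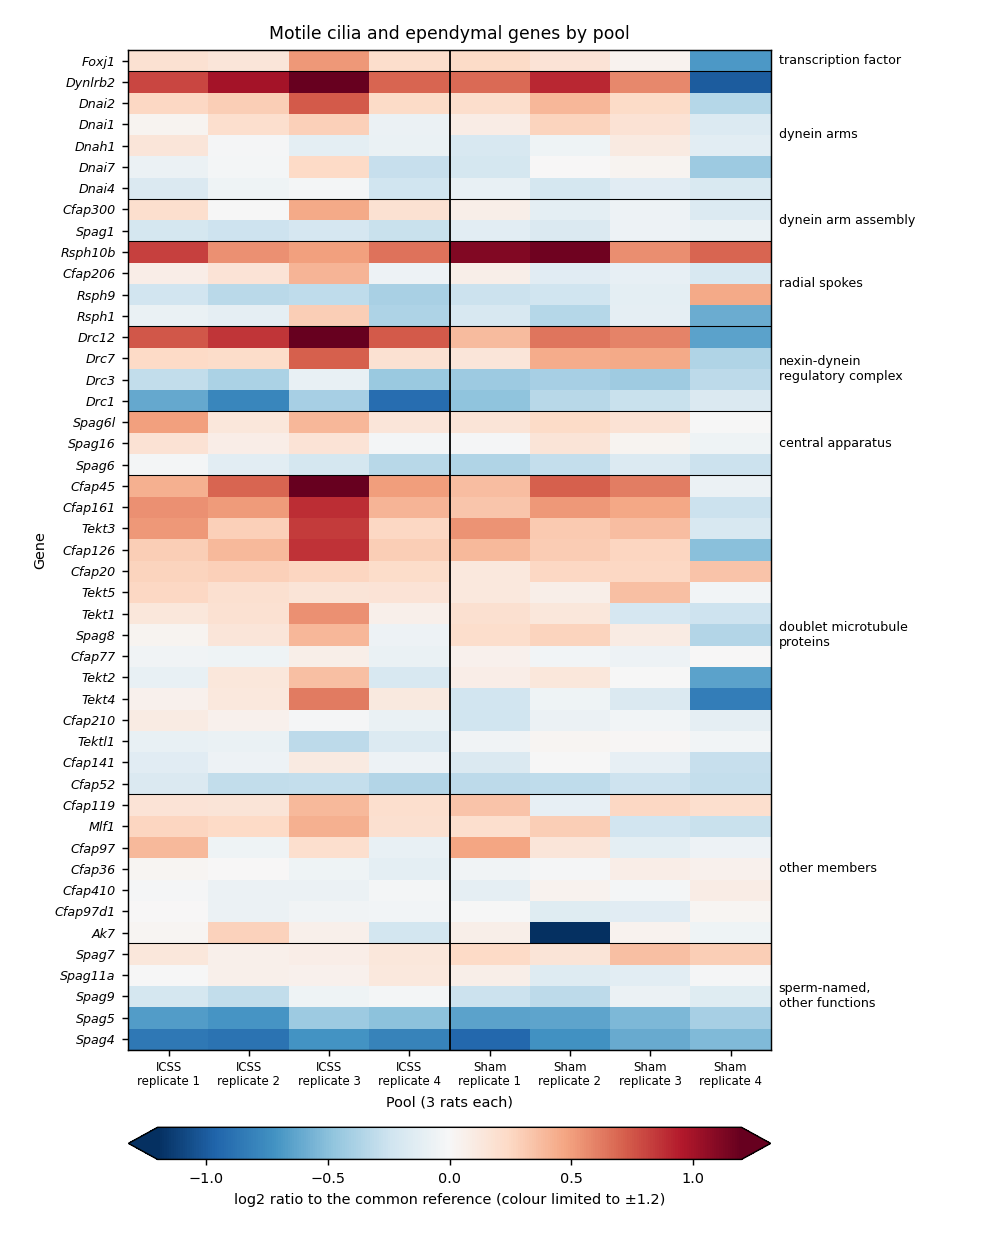
Log2 ratio of each of the 47 members to the common reference (colour scale) in the 8 pools (columns), grouped by the part of the cilium in which the product acts. The column of Sham replicate 4 is the bluest for Foxj1, Dynlrb2, Drc12 and most tektins, and the column of ICSS replicate 3 the reddest. The rows of the sperm-named genes at the bottom lack this contrast.

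Foxj1, the regulator of the programme, stood at 0.18, 0.15, 0.52 and 0.21 in ICSS replicates 1 to 4 and at 0.23, 0.17, 0.044 and -0.69 in Sham replicates 1 to 4. Sham replicates 1 to 3 lay close to the ICSS pools, and Sham replicate 4 lay far below all others. The difference of ICSS minus Sham was 0.33 (SE 0.18, limma adjusted p = 0.496), and it was 0.12 (SE 0.098, limma adjusted p = 0.703) without Sham replicate 4. Its features differed in size: one stood at -1.23 in Sham replicate 4 and 0.92 in ICSS replicate 3, and the other stayed between -0.14 and 0.12 in all pools.

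Among genes of the dynein arms, the motors of the beat, Dynlrb2 had the widest spread of all members. It encodes a dynein light chain of the roadblock family. Its log2 ratios were 0.80, 0.99, 1.67 and 0.69 in ICSS and 0.68, 0.91, 0.58 and -1.002 in Sham replicates 1 to 4. The range over pools was therefore 2.67, and Sham replicate 4 minus the mean of the other Sham pools was -1.72. The group difference of 0.75 (SE 0.38, limma adjusted p = 0.457) became 0.32 (SE 0.21, limma adjusted p = 0.634) without that pool. Dnai2, an intermediate chain of the outer arm, was at 0.25, 0.29, 0.74 and 0.23 in ICSS and 0.22, 0.40, 0.23 and -0.34 in Sham pools, again lowest in Sham replicate 4 and highest in ICSS replicate 3. Dnai1, its partner chain, ranged from -0.16 to 0.28 with the same 2 pools at the ends, and so did Dnai7, from -0.44 to 0.24. Dnai4, a chain of the inner arm, and Dnah1, an inner-arm heavy chain, spanned only 0.22 and 0.35, and the 4 features of Dnah1 did not share one sign of difference. All 6 genes of the arms had a higher mean in ICSS pools, by 0.021 to 0.75, and none passed the test.

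Drc12 belongs to the nexin-dynein regulatory complex, which links neighbouring doublets. It stood at 0.74, 0.86, 1.34 and 0.73 in ICSS and at 0.38, 0.65, 0.60 and -0.64 in Sham pools. All ICSS pools lay above all Sham pools, and both features agreed, at 0.66 and 0.69. The difference was 0.67 (SE 0.26, limma adjusted p = 0.341), or 0.38 (SE 0.14, limma adjusted p = 0.421) without Sham replicate 4, and the groups still did not overlap. Drc7 was at 0.72 in ICSS replicate 3 and -0.36 in Sham replicate 4, and its difference went from 0.17 to -0.0074 without that Sham pool. Drc1, needed to assemble the complex, had the smallest p of all members and the opposite sign. It lay at -0.62, -0.79, -0.40 and -0.92 in ICSS and -0.48, -0.33, -0.26 and -0.18 in Sham pools, and ICSS minus Sham was -0.37 (SE 0.11, limma adjusted p = 0.239). Here Sham replicate 4 was the highest pool, and ICSS replicate 3 lay among the Sham pools. Drc3 stayed between -0.45 and -0.087, with its highest value in ICSS replicate 3.

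The proteins that line or bind the doublet microtubules made up the largest group, with 15 genes. Of these 10 were lowest in Sham replicate 4 and 10 highest in ICSS replicate 3, with 9 in common. Tekt4, one of the tektins, filament proteins inside the doublets, was at 0.050, 0.13, 0.62 and 0.12 in ICSS and -0.23, -0.053, -0.18 and -0.83 in Sham pools. Its groups did not overlap, with a difference of 0.55 (SE 0.18, limma adjusted p = 0.255), and 0.38 (SE 0.13, limma adjusted p = 0.369) without Sham replicate 4. Tekt1, at 0.26 (SE 0.13, limma adjusted p = 0.443), and Tekt3, at 0.21 (SE 0.17, limma adjusted p = 0.627), had the same end pools. Without Sham replicate 4 their differences were 0.19 and 0.065. Tekt2 reached 0.36 in ICSS replicate 3 and -0.64 in Sham replicate 4, and Tekt5 ranged only from -0.030 to 0.36. Tektl1, a tektin-like gene, differed in the other direction, by -0.15 (SE 0.064, limma adjusted p = 0.376), and its ICSS pools all lay below the Sham pools.

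Cfap45, an inner protein of the doublets, was above 0 in all pools but one, with 0.43, 0.70, 1.19 and 0.50 in ICSS and 0.37, 0.72, 0.62 and -0.072 in Sham pools. Cfap126, also known as Flattop, reached 0.87 in ICSS replicate 3 and -0.50 in Sham replicate 4, where the other 6 pools kept to 0.26 to 0.39. Cfap161 stood at 0.55, 0.52, 0.88 and 0.41 in ICSS and 0.33, 0.52, 0.46 and -0.26 in Sham pools. Of its 3 features, 2 differed by about the same amount, 0.57 and 0.58, and the third by -0.17. Spag8 had the same end pools, at 0.40 and -0.35, as did Cfap141 within a narrow range of 0.38. Cfap20, Cfap52, Cfap77 and Cfap210 differed by -0.019 to 0.13 between groups, and each spanned at most 0.34 over the pools.

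**Figure D2:**
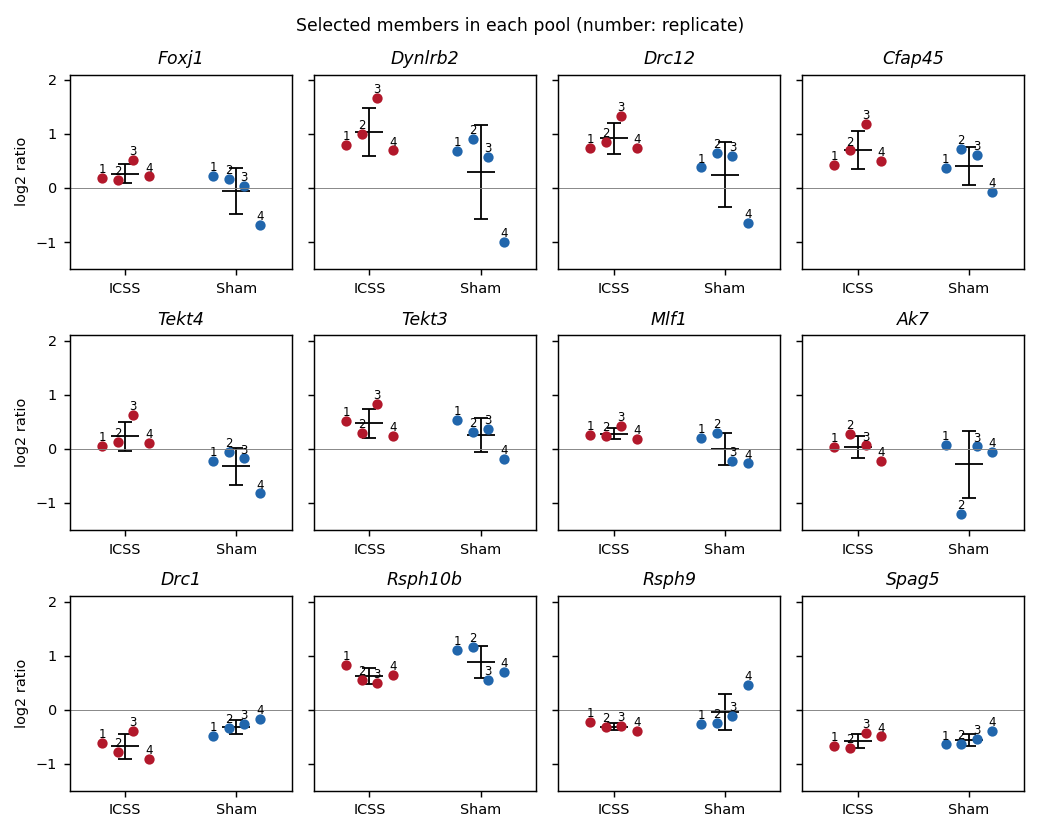
Log2 ratio to the common reference in each pool for 12 members. Points are pools with their replicate number, horizontal marks are group means and bars are SD (n = 4 pools). Sham replicate 4 is the lowest point for Foxj1, Dynlrb2, Drc12, Cfap45, Tekt4, Tekt3 and Mlf1, and the highest for Drc1, Rsph9 and Spag5.

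Radial spoke genes did not share one pattern. Rsph1, of the spoke head, was highest in ICSS replicate 3 (0.29) and lowest in Sham replicate 4 (-0.59). Rsph9, of the same spoke head, showed the reverse end in Sham replicate 4, at 0.45, where all other pools lay between -0.39 and -0.12. Rsph10b had the highest mean ratio to the reference of all members, with 0.82, 0.55, 0.49 and 0.65 in ICSS and 1.11, 1.16, 0.56 and 0.70 in Sham pools, and ICSS minus Sham was -0.25 (SE 0.14, limma adjusted p = 0.481). Cfap206, which anchors a spoke, differed by 0.24 (SE 0.10, limma adjusted p = 0.370), by 0.20 without Sham replicate 4, by 0.15 without ICSS replicate 3 and by 0.12 without both. Of the factors that assemble dynein arms in the cytoplasm, Cfap300 differed by 0.28 (SE 0.096, limma adjusted p = 0.292) and kept 0.24 without Sham replicate 4. Spag1, the other one, was lower in all ICSS pools, at -0.27 to -0.20 against -0.17 to -0.062 (difference -0.12, SE 0.052, limma adjusted p = 0.376).

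Genes of the central pair apparatus differed little between groups. Spag6l differed by 0.15, Spag6 by 0.090 and Spag16 by 0.068, Spag6l and Spag16 were lowest in Sham replicate 4, none of the 3 was highest in ICSS replicate 3, and no limma adjusted p was below 0.534. Mlf1, a gene active in ciliated cells, was at 0.19 to 0.42 in ICSS pools and at 0.20, 0.30, -0.23 and -0.27 in Sham replicates 1 to 4, so that a pair of Sham pools was low (difference 0.28, SE 0.13, limma adjusted p = 0.412). Ak7, an adenylate kinase of the cilium, lay at -1.21 in Sham replicate 2, between -0.050 and 0.071 in the other Sham pools and between -0.22 and 0.28 in ICSS pools. Its difference of 0.32 (SE 0.26, limma adjusted p = 0.634) was 0.014 without Sham replicate 2. Cfap36, Cfap97, Cfap97d1, Cfap119 and Cfap410 differed by -0.053 to 0.054 (limma adjusted p from 0.730 to 0.989).

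Several members carry a sperm name without a role in the cilium. Spag4, a nuclear envelope gene, and Spag5, which encodes the spindle protein astrin, had the lowest ratios to the reference of all members, at -0.94 to -0.53 and -0.71 to -0.40. Neither they nor Spag7, Spag9, a scaffold of kinase signalling, or Spag11a, a defensin-like gene, were lowest in Sham replicate 4 or highest in ICSS replicate 3. Spag7 lay lower in all ICSS pools, at 0.065 to 0.14 against 0.16 to 0.36 (difference -0.16, SE 0.059, limma adjusted p = 0.316). The 4 features of Spag9 disagreed, with differences from -0.12 to 0.33.

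Promoters are shown for Drc12, Tekt4 and Dnai2, which had the common end pools, and for Drc1, which did not, because ciliary genes are known to carry sites for RFX factors, the partners of Foxj1. The sequences are from RefSeq, build GRCr8, and run from 250 bases before to 50 bases after the gene's start on its own strand. They lie at chr8:53474409-53474708 (plus strand), chr10:14992034-14992333 (plus), chr10:100258772-100259071 (plus) and chr6:31779207-31779506 (minus). Capitals mark the single-arm RFX motif GTTGCC or its reverse complement. Each promoter shown holds this motif. Members without it are not shown, such as Dynlrb2, which had the common end pools.
Drc12: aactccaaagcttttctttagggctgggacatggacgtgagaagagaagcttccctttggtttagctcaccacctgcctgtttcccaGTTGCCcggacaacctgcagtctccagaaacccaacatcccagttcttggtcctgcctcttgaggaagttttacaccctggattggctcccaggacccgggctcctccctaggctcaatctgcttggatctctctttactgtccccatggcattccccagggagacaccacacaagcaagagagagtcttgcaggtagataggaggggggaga
Tekt4: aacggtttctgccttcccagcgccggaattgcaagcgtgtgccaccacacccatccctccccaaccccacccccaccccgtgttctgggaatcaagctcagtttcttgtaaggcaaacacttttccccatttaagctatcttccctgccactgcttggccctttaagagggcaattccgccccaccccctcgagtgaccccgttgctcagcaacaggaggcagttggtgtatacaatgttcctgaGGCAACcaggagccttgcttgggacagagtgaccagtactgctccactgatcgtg
Dnai2: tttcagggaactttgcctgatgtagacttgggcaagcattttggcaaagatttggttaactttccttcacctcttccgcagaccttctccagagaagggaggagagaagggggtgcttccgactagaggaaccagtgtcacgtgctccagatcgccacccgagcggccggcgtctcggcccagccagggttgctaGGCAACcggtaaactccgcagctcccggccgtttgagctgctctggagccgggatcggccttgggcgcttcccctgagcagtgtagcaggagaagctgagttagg
Drc1: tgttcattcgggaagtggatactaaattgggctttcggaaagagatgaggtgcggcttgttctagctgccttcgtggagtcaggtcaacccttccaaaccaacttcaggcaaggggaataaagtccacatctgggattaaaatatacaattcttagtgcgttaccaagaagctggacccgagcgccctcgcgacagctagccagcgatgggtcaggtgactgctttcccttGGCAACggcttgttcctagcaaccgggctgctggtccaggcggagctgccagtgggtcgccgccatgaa
The motif began at position -163 in Drc12, -5 in Tekt4, -55 in Dnai2 and -19 in Drc1, counted from the start. Of 38 members with a promoter in the table, 16 held it, or 42.1%, against 12.3% of the 12238 genes named on the arrays and 12.2% of all 27457 promoters. It was in 9 of 18 members with the common end pools and in 7 of 20 others, so it was found on both sides of the pattern. The paired RFX motif, of which GTTGCC can be one arm, was searched only in a strict form, with a fixed gap between the arms. In that form it was in 0 of 38 members and 0.459% of all promoters. Pairs with a changed letter in an arm or with another gap were not counted. The 0 therefore does not show that members lack paired sites. The forkhead letters TGTTTA, on either strand, were in 8 of 38 members, or 21.1%, against 10.6% of the genes named on the arrays and 13.7% of all promoters. A match of letters does not show a bound site, and a missing match shows only that these letters are not in this window.

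ICSS was set against Sham over all members to ask whether self-stimulation changed the ciliary genes of the hippocampus. Of 47 members, 36 had a higher and 11 a lower mean in ICSS pools, where 52.8% of all units were higher. The median difference was 0.088, against 0.0078 over all units. By limma with Benjamini-Hochberg adjustment over all units, 0 of 47 members passed 0.05, beside 0.0461% of all units, 0.0259% higher and 0.0202% lower. The lowest limma adjusted p among members was 0.239. At an unadjusted p below 0.05, 4 members were higher (Tekt4, Cfap300, Drc12 and Cfap206) and 4 lower (Drc1, Spag7, Spag1 and Tektl1), beside 6.61% and 6.03% of all units. All ICSS pools lay above all Sham pools for Drc12 and Tekt4, and below them for Spag1, Spag7 and Tektl1, against 4.13% and 3.66% of all units. By unadjusted p and by overlap of the groups, the shares of members were near those of all units. The share of members with a higher mean was above that of all units.

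Without Sham replicate 4, 32 of 47 members were higher, beside 51.6% of all units, and the median difference was 0.055. The same 5 members had groups that did not overlap, beside 5.67% of units higher and 5.06% lower. Again 0 members passed (0.0403% of all units), with a lowest limma adjusted p of 0.369. At an unadjusted p below 0.05 there were 3 higher members, Tekt4, Cfap300 and Drc12, beside 5.33% of units, and 1 lower, Drc1, beside 4.76%. Of the 15 members whose difference exceeded 0.2, 14 shrank without that pool, the exception being Ak7, and 9 had a difference smaller than the SD of their Sham pools. The direction turned in 6 members, namely Drc7, Tekt2, Spag8, Dnai1, Cfap97 and Spag5. With ICSS replicate 3 left out as well, 26 members were higher and the median difference was 0.011. The median SD of members over the 4 pools was 0.17 in Sham and 0.14 in ICSS, against 0.10 and 0.097 over all units.

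**Figure D3:**
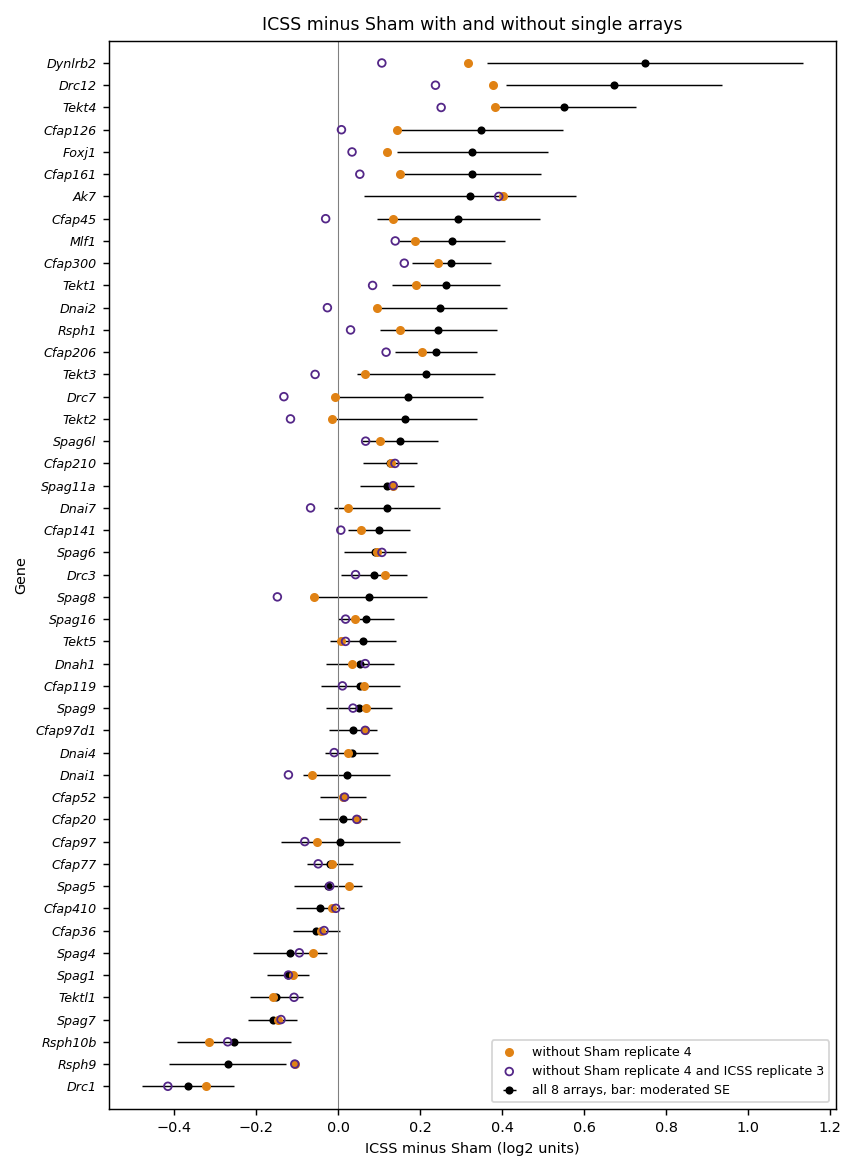
ICSS minus Sham in log2 units for the 47 members with all 8 arrays (black, bar: moderated SE), without Sham replicate 4 (orange) and without both Sham replicate 4 and ICSS replicate 3 (open purple). The points of Dynlrb2 move from 0.75 over 0.32 to 0.11, while those of Drc1 stay between -0.41 and -0.32.

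Motile cilia genes outside the naming rule came from a list of dynein assembly factors, docking proteins and other ciliary genes. They resembled the members in their end pools. Of 60 measured, 43 were higher and 17 lower, with a median difference of 0.071, and 0 passed. Without Sham replicate 4 the median difference was 0.061. At a limma unadjusted p below 0.05, 9 were higher and 1 lower, beside 6.61% and 6.03% of all units, where members had 4 and 4. Without Sham replicate 4 there were 6 higher and 1 lower, beside 5.33% and 4.76%. All ICSS pools lay above all Sham pools for 6 genes and below them for 0, against 4.13% and 3.66% of all units. Of the 60, 27 were lowest in Sham replicate 4 and 30 highest in ICSS replicate 3, with 21 in common. Dnaaf6, a dynein arm assembly factor, was at 0.39, 0.13, 0.22 and 0.16 in ICSS and 0.10, -0.12, -0.21 and -0.21 in Sham pools, and ICSS minus Sham was 0.34 (SE 0.087, limma adjusted p = 0.183), with no overlap and with 0.30 left without Sham replicate 4. Morn5 differed by 0.41, Dnaaf1, another assembly factor, by 0.19 and Vwa3a by -0.28 (limma adjusted p from 0.203 to 0.292). Tppp3, a tubulin-binding gene of ependymal cells, stood at -1.04 in Sham replicate 4 and at -0.57 to -0.14 elsewhere. Hydin, of the central pair, was not analysed here.

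Upstream regulators of ciliogenesis lacked the contrast between pools. Of 16 measured, 8 were higher and 8 lower, with a median difference of -0.00024, and 1 was lowest in Sham replicate 4 and 3 highest in ICSS replicate 3. Rfx2 and Rfx3, members of the RFX family, differed by -0.13 (SE 0.057, limma adjusted p = 0.383) and -0.0060. Tfdp1, Tp73 and E2f4 differed by -0.094, 0.11 and -0.072, and none of the 16 passed. Genes of intraflagellar transport and the primary cilium, which neurons also use, had 11 of 35 members higher, a median difference of -0.026, 6 lowest in Sham replicate 4 and 3 highest in ICSS replicate 3. Neither list held a gene with both end pools. Of 28 sperm and testis genes, 7 (25%) were lowest in Sham replicate 4 and 7 (25%) highest in ICSS replicate 3, against 20.7% and 10.8% of all units. Both end pools were held by 3 of them (10.7%), against 4.04% of all units.

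Markers of other cells moved with the same pools in part. All 11 oligodendrocyte genes measured were lowest in Sham replicate 4 and 9 were highest in ICSS replicate 3, a larger share than among the ciliary genes. Their median ratio ran from -0.13 to 0.45 in ICSS and from -0.46 to 0.20 in Sham pools. Mog, a myelin protein gene, was at 0.78 in ICSS replicate 3 and -1.01 in Sham replicate 4. Their part in the values of the ciliary genes was not tested. Choroid plexus genes shared the low end but not the high one. Their median was highest in Sham replicate 1, at 0.34, and lowest in Sham replicate 4, at -0.46, and ran from -0.31 to 0.0052 in ICSS pools. Of 27 measured, 10 were lowest in Sham replicate 4 and 1 highest in ICSS replicate 3, with 0 in common. In Sham replicate 4, 16 of the 27 (59.3%) lay more than 0.3 below the mean of the other Sham pools, as did 16 of the 47 members (34.0%) and 6.73% of all units. The part of this epithelium in the ciliary values was not tested. Ttr, the transthyretin gene of that epithelium, was at 1.03 in Sham replicate 1 and 0.31 in ICSS replicate 4, from -1.24 to -0.82 in ICSS replicates 1 to 3 and from -2.41 to -1.11 in Sham replicates 2 to 4, and Folr1 at 1.16 in Sham replicate 1 and -1.07 in Sham replicate 4. Foxj1 was at 0.23 in Sham replicate 1, its highest Sham pool, and at 0.52 in ICSS replicate 3, its highest pool of all.

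**Figure D4:**
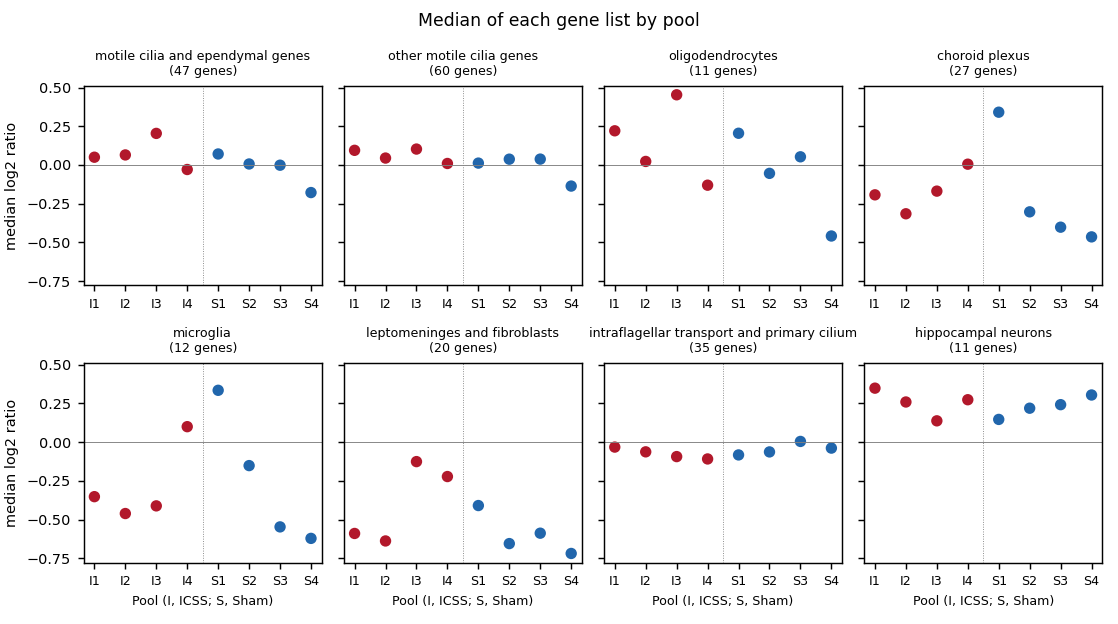
Median log2 ratio of 8 gene lists in each pool (red, ICSS; blue, Sham). The motile cilia, oligodendrocyte, leptomeninges and fibroblast, choroid plexus and microglia panels all have their lowest point in Sham replicate 4. The motile cilia, oligodendrocyte, and leptomeninges and fibroblast panels peak in ICSS replicate 3. Choroid plexus and microglia peak in Sham replicate 1.

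Ependymal markers that do not belong to the cilium were mixed. Of 22 measured, 15 were higher, 9 (40.9%) lowest in Sham replicate 4 and 3 (13.6%) highest in ICSS replicate 3, and 0 passed. Of all units, 52.8% were higher, 20.7% lowest in Sham replicate 4 and 10.8% highest in ICSS replicate 3. Both end pools were held by 3 of the 22 (13.6%), against 4.04% of all units. Hdc, which encodes the enzyme of histamine synthesis, was at 0.36, 0.13, 0.71 and 0.29 in ICSS and -0.089, -0.011, -0.30 and -1.14 in Sham pools. The groups did not overlap, with a difference of 0.76 (SE 0.23, limma adjusted p = 0.231) and of 0.51 without Sham replicate 4. Cd24 differed by 0.15, Sox9, a glial transcription factor gene, by -0.43 and Igfbp5 by -0.24 (limma adjusted p from 0.278 to 0.303). Gfap, shared with astrocytes, differed by 0.35 (SE 0.21, limma adjusted p = 0.527).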

How the data were processed

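The authors deposited 1 log2 ratio of pool (Cy5) over common reference (Cy3) per feature and array, for 45220 features on 8 arrays. The submitters' processing notes name limma, without a version. How background was corrected and arrays normalized is not stated in those sources. The log base was taken as 2 and the direction from the dyes in the labels. Per the labels the reference held hippocampus, thalamus and cortex, while the design text names hippocampus alone, so ratios to it are descriptions. Spot intensities were not used here, and detection was not judged for any gene. The number of arrays limits the precision.

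Features with 1 platform symbol (25353) were averaged per gene, and the others kept as probes, 34738 units in all. Limma 3.58.1 (R 4.3.3, lmFit and eBayes, no covariates, two-sided) compared ICSS with Sham, and p-values were adjusted by Benjamini-Hochberg across the 34738 units (threshold 0.05). No filter was applied, so all 47 members were tested. The fit was tested on simulated data. Samples of one number did not deviate together (correlations from -0.053 to 0.058), so replicate numbers were taken as names. The labels call the pools biological replicates.

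The members and lists were chosen with earlier results of these data known. By rule, values were given for the 4 single names, the 12 members of smallest p, and the 6 highest and 6 lowest mean ratios. The rule also took genes whose features disagree, and up to 4 genes of 3 other lists with a few set genes. Further members are described by role, several with pool values, among them Dnai2, Cfap126, Rsph9, Drc7, Rsph1 and Tekt2, which the rule did not name. Mog and 2 region markers were chosen after their values were seen. Roles are background knowledge. The lists share Gfap, Aqp4 and Sox9 between ependyma and astrocytes, Igf2 between choroid plexus and leptomeninges, and Zmynd10 between ciliary lists.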

Additional observations from a re-analysis of the deposited data

Results flagged for a closer look

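Among 94 groups of 4 pools (47 members in each of 2 conditions), 6 held a pool far from the others by Dixon's criterion, which chance meets in about 1 of 20 groups. In ICSS replicate 3, Cfap126 at 0.87, Dnai2 at 0.74, Drc7 at 0.72 and Tekt4 at 0.62 stood above the other ICSS pools. In Sham replicate 4, Cfap126 at -0.50 stood below the other Sham pools. In Sham replicate 2, Ak7 at -1.21 stood below the others, on a single feature. Over all units, 1.24% had such a value in ICSS replicate 3, 2.51% in Sham replicate 4 and 1.21% in Sham replicate 2.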

How the results depend on the processing

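No member was called under any of 19 alternatives, and the lowest limma adjusted p was 0.190 (Drc1, without Sham replicate 1). With single arrays left out, members higher in ICSS ranged from 32 to 36, the median difference from 0.046 to 0.11, higher members at an unadjusted p below 0.05 from 2 to 7, and lower ones from 1 to 4. Against 0.088 with all arrays, leaving out ICSS replicate 3 gave a median difference of 0.046, leaving out Sham replicate 4 gave 0.055 and leaving out both gave 0.011, an alternative chosen after seeing the data. In that last setting 2 members were higher and 1 lower at an unadjusted p below 0.05, and Cfap45 and Tekt3 turned to -0.030 and -0.056. Testing features gave 7 higher features at that level, and a replicate block 8 higher members, with 0 calls. Centring each array on its median turned Cfap52 to -0.00085, and the median of features turned Spag9 to -0.061. With single arrays left out, Cfap52 ranged from -0.023 (without ICSS replicate 1) to 0.036, and Spag5 from -0.072 to 0.028 (without Sham replicate 4), with 0.0072 and 0.020 without ICSS replicates 1 and 2. The cause of these changes was not tested. For the 23 members chosen for naming, 383 of 391 values under 17 alternatives kept their direction and 8 turned, while of all 47 members 6 turned without Sham replicate 4. The rule applied to current symbols gave the same 47 genes. Dim spots could not be set apart, so small ratios may be limited by signal.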

Other observations

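Wdr93, of the list of other ciliary genes and named after its values were seen, reached 2.82 in ICSS replicate 1, whereas all remaining pools kept to -0.14 to 0.35. One feature of Spag9 was at 1.03 and 0.83 in ICSS replicates 3 and 4 and between -0.25 and 0.44 elsewhere, while its other 3 features stayed between -0.53 and 0.089. Both features of Rsph9 were highest in Sham replicate 4, at 0.19 and 0.72. Microglial genes shared the end pools of the choroid plexus genes: their median was 0.33 in Sham replicate 1, 0.10 in ICSS replicate 4 and -0.62 to -0.15 elsewhere, with 7 of 12 lowest in Sham replicate 4 and 0 highest in ICSS replicate 3. Genes of leptomeninges and fibroblasts had 10 of 20 highest in ICSS replicate 3 and 4 lowest in Sham replicate 4. Their median was highest in ICSS replicate 3, at -0.13, and lowest in Sham replicate 4, at -0.72, the end pools of the ciliary genes.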
